A study of Mus musculus with 16 samples.

Results

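The ubiquitin-specific proteases (USPs) other than Usp30 were followed in mouse hearts that had lost carnitine palmitoyltransferase 2 (CPT2), and in hearts that had lost both CPT2 and USP30. All gene symbols that begin with Usp and a digit were taken, except Usp30, which gave 54 genes of the 19635 named in the count tables. The first table held 5 wild type hearts and 5 hearts labelled CPT2H-KO and listed 43 of the 54 genes. The second table held 3 hearts labelled CPT2 single KO and 3 labelled CPT2/USP30 double KO and listed all 54. According to the series' design text, Cpt2 was deleted in cardiomyocytes only, and the line lacking USP30 carried floxed Usp30 alleles with a Cre driven by Myh6, a cardiomyocyte myosin gene. The genotype of the first and of the second set of CPT2-deficient hearts carries the same label, CPT2H-KO, so the second table has no heart with intact Cpt2, and USP30 loss was measured only on a CPT2-deficient background. Ages, sexes, the Cre status of the wild type hearts and whether littermates were used are not stated in the labels. The labels call the samples biological replicates without saying more of their origin. Each p-value sets the group difference against the spread between these hearts and takes the hearts as independent.

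USPs are cysteine proteases that remove ubiquitin, a small protein tag, from other proteins or trim chains of it, and so act against the ubiquitin ligases that attach the tag. Depending on the substrate and the linkage, removal spares a protein from the proteasome, returns a receptor from the endosome to the membrane, or opens chromatin. On damaged mitochondria the ligase Parkin marks the outer membrane for removal by mitophagy; USP30, which is anchored in that membrane, takes the mark off, and several other USPs have been tied to the same step. The comparisons asked whether these relatives change in transcript level when CPT2, an enzyme that fatty acids need to be burned in the mitochondrion, or USP30 is lost. Usp6nl matched the symbol rule but encodes a protein with a domain that acts on Rab GTPases and no USP domain, and Usp39 encodes a splicing protein whose USP domain lacks the active cysteine. Both were counted.

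Library totals ran from 55905339 to 132762776 counts in wild type hearts and from 54674422 to 131049342 in CPT2H-KO hearts, and from 11067969 to 13532716 in single KO and 11779115 to 12734379 in double KO hearts. Levels are given as CPM, the library-size-scaled count after TMM scaling, a scale that sets most genes to no change, and a fold change is the difference on the log2 scale. Cpt2 served as the check of the first table's labels: it fell from 77.9 ± 15.2 to 40.4 ± 5.72 CPM (SD, n = 5 each), by 0.95 on the log2 scale (edgeR adjusted p = 9.7e-04), with no overlap between the groups. In the second table Usp30 averaged 21.0 ± 2.22 CPM over the single KO and 9.38 ± 1.68 CPM over the double KO hearts (SD, n = 3 each). The groups did not overlap, and the log2 fold change was -1.16 (SE 0.18), but the edgeR adjusted p was 0.147. DESeq2 gave an adjusted p of 2.39e-04 for the same gene. The protocols name whole hearts, so RNA from non-cardiomyocytes, in which by design neither gene was deleted, is part of these levels. Fewer cells of a type cannot be told apart from less RNA per cell. The atrial light chain Myl7 was at 0.285 CPM in CPT2H-KO replicate 3 and at 144 CPM in replicate 5. How much atrium each sample held was not tested.

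The 43 USP genes of the first table had a summed level of 1204 to 1356 CPM per wild type heart and 1285 to 1494 CPM per CPT2H-KO heart. As a share of the raw counts they made up 0.133% to 0.147% in wild type and 0.114% to 0.149% in CPT2H-KO hearts. To set genes beside each other, CPM was divided by exon length, the union of a gene's annotated exons. That length was 18.5 kb for Usp34, 16.6 kb for Usp15 and 7.60 kb for Usp13. It can exceed the length of the transcripts present, which lowers a gene's CPM per kb. Which transcripts were present was not tested, so the ranks and shares below depend partly on the annotation. On this scale Usp13 had the highest level in wild type hearts, at 21.1 ± 0.831 CPM per kb (SD, n = 5). USP13 is a relative of the chain-recycling enzyme USP5. Usp28, a stabiliser of nuclear proteins such as Myc, followed at 11.6 CPM per kb and Usp9x, an X-linked protease with many substrates, at 11.0 CPM per kb. Next came Usp25 at 9.26, Usp5 at 8.05, Usp2 at 7.03, Usp19 at 6.75 and Usp24 at 6.50 CPM per kb. Those 8 genes made up 52.3% of the family's summed level per kb. Usp28 and Usp9x lay within 1 SD of each other, and Usp2 lay within 1 SD of Usp5 and of Usp19. At the low end stood Usp18 at 0.673, Usp43 at 0.235, Usp35 at 0.176 and Usp49 at 0.164 CPM per kb, and 51.2% of the exon bases of Usp49 are shared with another gene, Gm20517. In the second table Usp13 again led in single KO hearts, at 42.1 ± 5.75 CPM per kb (SD, n = 3), ahead of Usp2 at 33.8, Usp28 at 29.2, Usp5 at 29.0 and Usp19 at 24.6 CPM per kb. Levels were not compared across the tables, which were made from different gene sets and depths.

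**Figure D1:**
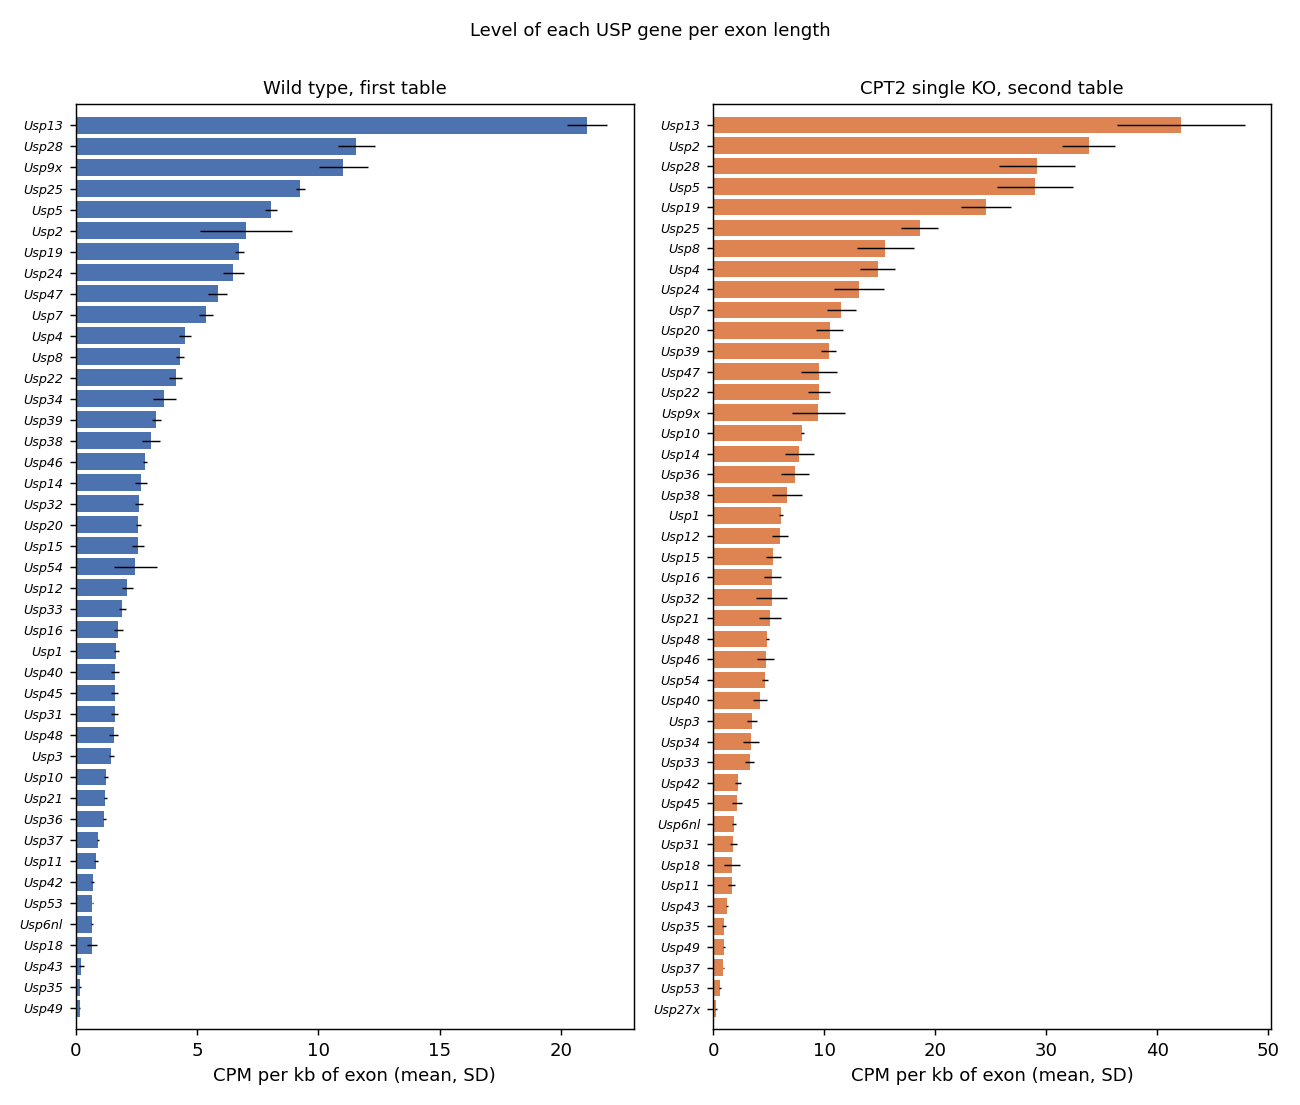
Level of each tested USP gene, in CPM per kb of the union of its annotated exons, in wild type hearts (left, n = 5) and CPT2 single KO hearts (right, n = 3). Bars show means and lines the SD; Usp13 leads in both, and the scales of the tables are not comparable.

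Of the second table's 54 genes, 10 did not pass the filter on low counts. Usp9y, the Y-linked copy of Usp9x, had 0 counts in all 6 libraries, where 3 counts correspond to 0.224 to 0.275 CPM. Usp17la, at 5 to 9 counts, was the highest of the 10, and Usp17lc reached 7 and Usp17le 4 counts in a library. Usp17lb, Usp26, Usp29, Usp44, Usp50 and Usp51 stayed at 2 counts or fewer. These genes were not tested, and the Usp17-like genes are near-identical copies whose reads may be split between them. The first table lists only genes with at least 151 counts over its 10 libraries, and the same 10 genes plus Usp27x were not analysed there.

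In CPT2H-KO hearts 13 of the 43 USP genes rose and 3 fell at an edgeR adjusted p under 0.05, and 27 did not pass. The largest rises were in Usp36, a nucleolar protease, at 0.81 on the log2 scale, in Usp32, a membrane-anchored protease of the Golgi and endosome, at 0.52, and in Usp16, a histone deubiquitinase, at 0.51. Usp11, Usp21 and Usp25 fell. The 16 called genes are 37.2% of the family, beside 33.7% of all 14123 genes tested. Higher calls covered 30.2% of the USP genes and 16.7% of all genes, and lower calls 6.98% of the USP genes and 17% of all genes. The median log2 fold change was 0.107 over the USP genes and -0.01 over all genes. The direction rests on the scaling: with library totals in place of TMM, 1 USP gene (Usp36) was higher and 10 were lower, at a median of -0.16, while all genes moved to a median of -0.27, so that the family's median lay 0.113 above that of all genes, against 0.114 with TMM. The median also fell to 0.054 without CPT2H-KO replicate 3 and rose to 0.165 without wild type replicate 5.

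The changes were small. Only Usp36, Usp32 and Usp16 reached an absolute log2 fold change of 0.5, and no USP gene reached 1. Of the 16 called genes 13 lay under 0.5, whereas 52.8% of all called genes were at or above it. The median absolute log2 fold change was 0.155 for the USP genes and 0.255 for all genes tested. For a single USP gene the 95% confidence interval reached a median of 0.187 to either side of the estimate, so changes smaller than that were mostly not detectable. The 2 groups did not overlap for 14 USP genes, 12 higher and 2 lower in CPT2H-KO hearts, which is 32.6% of the family beside 24.7% of all genes.

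**Figure D2:**
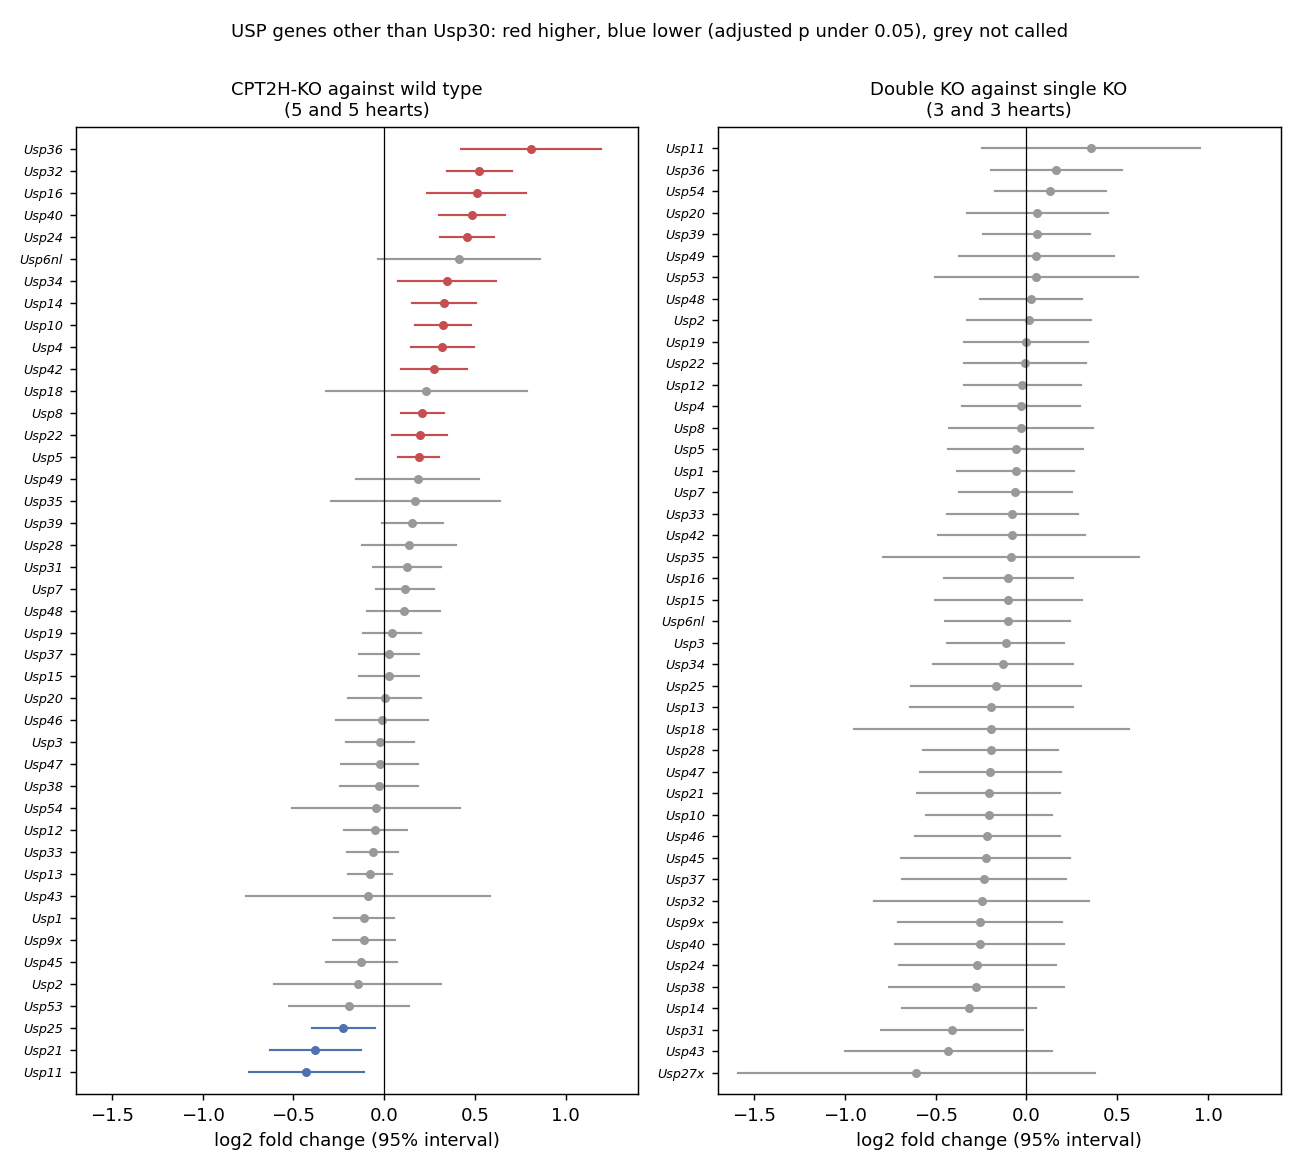
Log2 fold change of each USP gene with its 95% confidence interval, for CPT2H-KO against wild type and for double KO against single KO hearts, with TMM scaling. In the first comparison 13 genes pass the test above 0 and 3 below it (1 above and 10 below when library totals replace TMM); in the second none passes and 35 of 44 lie below 0.

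Usp36 (GRCm38 chr11:118259651-118290244, minus strand) was at 8.63, 9.63, 9.50, 8.56 and 8.99 CPM in the wild type hearts and at 13.8, 10.9, 22.2, 19.8 and 12.7 CPM in the CPT2H-KO hearts. All 5 CPT2H-KO hearts were above all wild type hearts, and CPT2H-KO replicates 3 and 4 were the highest. The group means were 9.06 ± 0.491 and 15.9 ± 4.86 CPM (SD, n = 5 each), a log2 fold change of 0.81 (SE 0.18, 95% confidence interval 0.42 to 1.19, edgeR adjusted p = 0.00541). With a covariate for atrial RNA, the mean log2 CPM of Myl7, Myl4 and Sln, its log2 fold change was 0.55 and the edgeR adjusted p 0.0793. USP36 removes ubiquitin from nucleolar proteins and histones and has been tied to a mitochondrial antioxidant enzyme.

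Usp32 (GRCm38 chr11:84984442-85140161, minus strand) was at 19.2, 19.9, 19.7, 19.7 and 22.2 CPM across the wild type hearts and at 34.7, 28.9, 26.7, 27.1 and 27.5 CPM across the CPT2H-KO hearts. The groups did not overlap, and in each group 1 heart stood above the rest. Means were 20.1 ± 1.17 and 29.0 ± 3.32 CPM (SD, n = 5 each), a log2 fold change of 0.52 (95% confidence interval 0.34 to 0.71, edgeR adjusted p = 9.53e-04). Usp16 (GRCm38 chr16:87454703-87483517, plus strand) was at 14.7, 18.1, 16.3, 15.3 and 18.9 CPM across the wild type hearts and at 31.1, 21.9, 20.3, 20.4 and 24.9 CPM across the CPT2H-KO hearts. Again no CPT2H-KO heart fell within the wild type range, and replicate 1 was the highest. Means were 16.7 ± 1.81 and 23.7 ± 4.51 CPM (SD, n = 5 each), a log2 fold change of 0.51 (SE 0.12, edgeR adjusted p = 0.00976).

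The promoters of these 3 genes, which had the largest rises, and that of Usp11, which had the largest decrease, are shown. The rises of Usp40 (0.48) and Usp24 (0.46) were larger in size than the decrease of Usp11 (-0.43). Each is the 250 bases before the gene's RefSeq start (build GRCm38.p6) on the gene's strand, which can lie inside the gene model of another annotation. Windows were found for 41 of the 54 USP genes. The windows are chr11:118290245-118290494 (minus strand) for Usp36, chr11:85139956-85140205 (minus strand) for Usp32, chr16:87454735-87454984 (plus strand) for Usp16 and chrX:20703659-20703908 (plus strand) for Usp11. Capitals mark matches on either strand to GGGCGG, the GC box bound by Sp factors, to CCAAT, the box bound by NF-Y, or to CACGTG, the E-box that clock and lysosomal regulators bind. Adjoining matches run together.
Usp36: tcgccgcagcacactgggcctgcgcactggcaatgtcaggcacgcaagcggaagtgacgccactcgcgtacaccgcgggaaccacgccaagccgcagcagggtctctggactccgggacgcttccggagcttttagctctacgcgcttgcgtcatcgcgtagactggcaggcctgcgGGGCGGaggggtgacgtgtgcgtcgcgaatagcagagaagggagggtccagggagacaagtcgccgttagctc
Usp32: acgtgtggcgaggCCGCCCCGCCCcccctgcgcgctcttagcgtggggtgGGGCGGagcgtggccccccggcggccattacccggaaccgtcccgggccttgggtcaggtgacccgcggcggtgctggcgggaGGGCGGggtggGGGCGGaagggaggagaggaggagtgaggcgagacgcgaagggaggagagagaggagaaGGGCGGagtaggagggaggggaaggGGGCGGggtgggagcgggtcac
Usp16: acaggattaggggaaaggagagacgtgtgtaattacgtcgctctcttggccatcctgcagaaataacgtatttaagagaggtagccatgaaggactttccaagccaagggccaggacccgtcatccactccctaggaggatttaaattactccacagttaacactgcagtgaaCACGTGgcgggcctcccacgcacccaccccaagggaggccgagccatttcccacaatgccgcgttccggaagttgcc
Usp11: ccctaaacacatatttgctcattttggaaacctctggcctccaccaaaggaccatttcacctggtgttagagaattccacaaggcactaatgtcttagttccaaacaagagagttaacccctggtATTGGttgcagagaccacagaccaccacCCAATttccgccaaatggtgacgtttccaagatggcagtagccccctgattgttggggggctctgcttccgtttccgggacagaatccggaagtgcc

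Usp32 carried 7 matches to GGGCGG, Usp36 carried 1, Usp16 held 1 CACGTG and Usp11 held 2 CCAAT matches. Across the family GGGCGG was found in 26 of 41 windows (63.4%), beside 59.1% of the 10007 windows of genes tested in the first table and 32.9% of all 27025 windows. Among the USP genes that rose it was in 6 of 9 windows (66.7%), and among those not called in 17 of 20 (85%). CCAAT was in 12 of 41 USP windows (29.3%), in none of the 9 of genes that rose, in 36.1% of the windows of tested genes and in 34.5% of all. CACGTG was in 4 of 41 (9.76%), namely Usp4, Usp16, Usp31 and Usp6nl, beside 8.43% of the windows of tested genes and 6.05% of all. TGATGNAA, the composite element read by ATF4 with a C/EBP factor, was in 1 of 41, Usp26, beside 1.95% of the windows of tested genes and 3.53% of all. A match is a run of letters and was not tested as a binding site.

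Among the 8 genes with described ties to mitophagy, Parkin or the mitochondrion, 3 rose (Usp36, above, and Usp8 and Usp14), none fell and 5 did not pass. For this and the groups that follow, the shares over all genes tested are 16.7% higher and 17% lower, and groups this small are described without a test. Usp8, whose product removes ubiquitin from Parkin itself and from endosomal cargo, was at 18.5, 18.7, 17.6, 17.0 and 18.2 CPM across the wild type hearts and at 21.2, 20.3, 20.4, 20.9 and 21.3 CPM across the CPT2H-KO hearts. The groups did not overlap, and both were tight. Their log2 difference came to 0.21 (SE 0.054, edgeR adjusted p = 0.0128), and with library totals it was -0.05. Usp14, a proteasome-bound protease that trims chains before degradation, was at 20.2, 24.9, 22.6, 20.5 and 23.8 CPM across the wild type hearts and at 27.9, 29.1, 25.5, 27.0 and 31.1 CPM across the CPT2H-KO hearts. All CPT2H-KO hearts were above all wild type hearts, by a log2 fold change of 0.33 (edgeR adjusted p = 0.00936). Of the Usp14 exon bases 26.0% are shared with Thoc1 on the opposite strand, and whether the counting used strand is unknown. Usp33 (24.4%), Usp38 (20.5%), Usp43 (12.8%) and Usp34 (11.6%) also share more than 10% of their exon bases with another gene, so their counts are uncertain to that extent.

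The other 5 of these genes did not pass the test. Usp13, which led the family per exon length, was at 153, 169, 162, 155 and 162 CPM across the wild type hearts and at 150, 157, 157, 151 and 143 CPM across the CPT2H-KO hearts, with overlapping groups (log2 fold change -0.08, 95% confidence interval -0.20 to 0.04, edgeR adjusted p = 0.298). Usp15, which counteracts Parkin, was at 38.8, 47.1, 46.7, 39.3 and 41.1 CPM across the wild type hearts and at 41.7, 42.9, 42.1, 42.2 and 48.1 CPM across the CPT2H-KO hearts (0.03, -0.14 to 0.19, edgeR adjusted p = 0.812). Usp33, which acts on Parkin at the outer membrane, was at 19.7, 19.0, 17.2, 17.6 and 19.9 CPM across the wild type hearts and at 17.8, 19.1, 17.9, 17.1 and 17.7 CPM across the CPT2H-KO hearts (-0.06, -0.20 to 0.08, edgeR adjusted p = 0.476). In each of these 3 genes the 2 groups overlapped, and the intervals leave room for changes of up to about 0.2 on the log2 scale.

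Usp19, an enzyme anchored in the endoplasmic reticulum and studied in muscle wasting, was at 49.0, 48.4, 47.2, 45.8 and 47.6 CPM across the wild type hearts and at 52.0, 44.7, 54.1, 51.6 and 42.9 CPM across the CPT2H-KO hearts. CPT2H-KO hearts lay on both sides of the wild type range (log2 fold change 0.04, 95% confidence interval -0.12 to 0.21, edgeR adjusted p = 0.678). Usp35, a close relative of USP38 with a form found on mitochondria, was low throughout, at 1.21, 0.761, 0.720, 1.03 and 0.942 CPM across the wild type hearts and at 0.869, 1.51, 1.12, 0.841 and 0.930 CPM across the CPT2H-KO hearts. The groups overlapped, and the interval of its log2 fold change, -0.30 to 0.64 around 0.17, was wide (edgeR adjusted p = 0.562). Usp30 itself, measured for reference, averaged 4.64 ± 0.140 CPM over the wild type and 5.26 ± 0.370 CPM over the CPT2H-KO hearts (SD, n = 5 each; log2 fold change 0.18, edgeR adjusted p = 0.081).

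**Figure D3:**
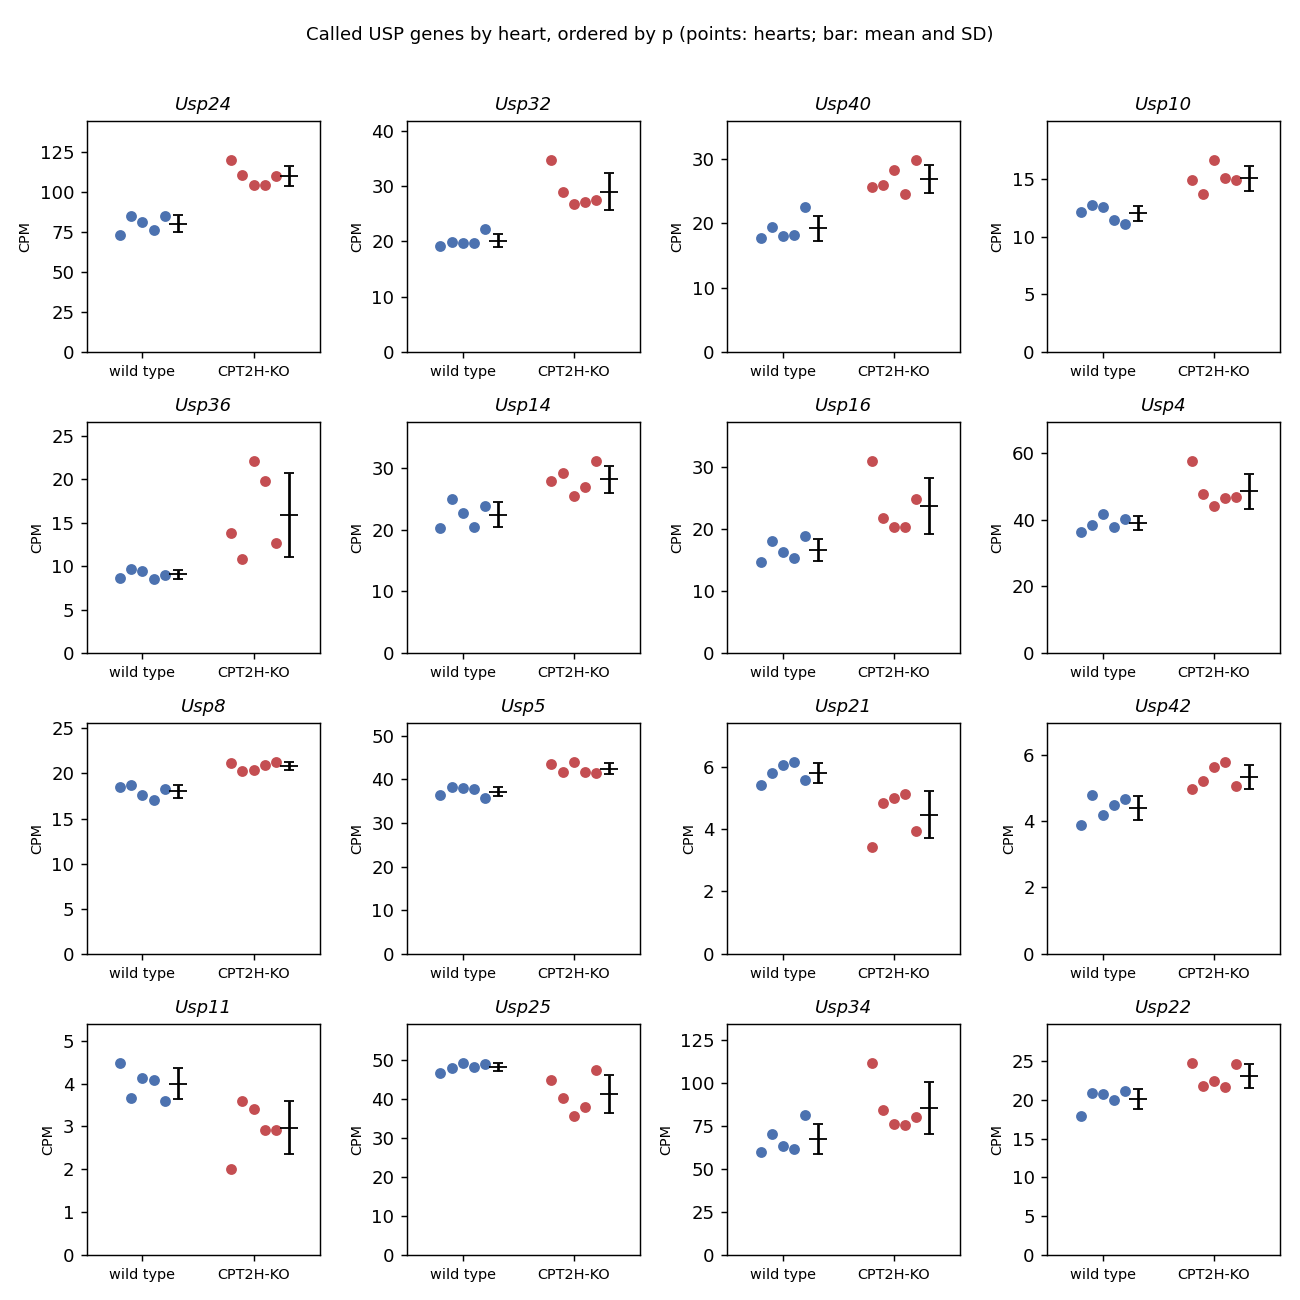
CPM of the 16 USP genes called in the first comparison, in each wild type and CPT2H-KO heart, with group means and SD (n = 5 each). For Usp36, Usp32, Usp16, Usp8 and Usp14 all CPT2H-KO hearts lie above all wild type hearts under TMM scaling. For Usp25 and Usp34 the groups overlap.

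Of the 3 genes of the proteasome and chain-recycling group, Usp14 and Usp5 rose and Usp13 did not pass. Usp5, which breaks up free ubiquitin chains, went from 37.2 ± 1.10 to 42.5 ± 1.23 CPM (SD, n = 5 each; log2 fold change 0.19, edgeR adjusted p = 0.0156), with no overlap; with library totals its log2 fold change was -0.07. In the endosome, membrane and cytoskeleton group 4 of 14 rose (Usp4, Usp8, Usp10 and Usp32) and none fell. Usp10, a protease that works with a stress granule protein, went from 12.0 ± 0.686 to 15.0 ± 1.07 CPM (SD, n = 5 each; 0.32, edgeR adjusted p = 0.00494). Usp4, a relative of USP11 and USP15 that acts on the TGF-beta receptor, went from 38.9 ± 2.10 to 48.6 ± 5.28 CPM (SD, n = 5 each; 0.32, edgeR adjusted p = 0.0102). Neither gene's groups overlapped.

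The histone, chromatin and DNA repair group had 5 genes higher (Usp16, Usp22, Usp24, Usp36 and Usp42) and 2 lower (Usp11 and Usp21) of 16. Usp24, a large protease that acts on DNA damage proteins, had the lowest p of the family and was picked out after its values were seen. It was at 73.1, 85.3, 81.1, 76.7 and 85.2 CPM across the wild type hearts and at 120, 111, 105, 104 and 110 CPM across the CPT2H-KO hearts. The lowest CPT2H-KO heart stood well above the highest wild type heart. Means were 80.3 ± 5.36 and 110 ± 6.46 CPM (SD, n = 5 each), a log2 fold change of 0.46 (SE 0.067, 95% confidence interval 0.31 to 0.60, edgeR adjusted p = 6.32e-04).

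Usp22, the protease of the SAGA complex that takes ubiquitin off histones, was at 18.0, 20.9, 20.8, 20.0 and 21.2 CPM across the wild type hearts and at 24.8, 21.9, 22.5, 21.7 and 24.6 CPM across the CPT2H-KO hearts. The groups did not overlap, but the nearest hearts of each group were close (log2 fold change 0.20, edgeR adjusted p = 0.0491; with library totals -0.07). Usp42, a nuclear protease, went from 4.40 ± 0.368 to 5.32 ± 0.362 CPM (SD, n = 5 each; 0.28, edgeR adjusted p = 0.0265), and with the atrial covariate its log2 fold change was 0.17 (edgeR adjusted p = 0.233). Usp40, for which the lists gave no group, went from 19.2 ± 1.93 to 26.8 ± 2.16 CPM without overlap (SD, n = 5 each; 0.48, edgeR adjusted p = 0.0016).

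The 2 falling genes of this group were low in all hearts. Usp11 (GRCm38 chrX:20703906-20720539, plus strand), a DNA repair protease, was at 4.49, 3.66, 4.14, 4.09 and 3.60 CPM across the wild type hearts and at 2.00, 3.59, 3.42, 2.93 and 2.92 CPM across the CPT2H-KO hearts. Every CPT2H-KO heart was below every wild type heart, in 1 case only just, and replicate 1 was the lowest (log2 fold change -0.43, SE 0.15, edgeR adjusted p = 0.0407). Usp21, another nuclear protease, was at 5.40, 5.80, 6.05, 6.16 and 5.58 CPM across the wild type hearts and at 3.42, 4.83, 5.00, 5.14 and 3.93 CPM across the CPT2H-KO hearts. It too had groups that did not overlap (log2 fold change -0.38, edgeR adjusted p = 0.025).

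In the signalling and innate immunity group Usp4 and Usp34 were higher, Usp25 lower and 3 of 6 did not pass. Usp34, a large protease of the Wnt pathway, went from 67.4 ± 8.81 to 85.7 ± 15.2 CPM with overlapping groups (SD, n = 5 each; 0.35, edgeR adjusted p = 0.0488), and CPT2H-KO replicate 1, at 112 CPM, stood apart from the next heart at 84.3 CPM. Usp18, which removes the ubiquitin-like interferon product ISG15, was at 1.30, 1.69, 1.49, 2.29 and 2.63 CPM across the wild type hearts and at 1.15, 2.30, 2.50, 2.83 and 2.19 CPM across the CPT2H-KO hearts. The groups overlapped fully (log2 fold change 0.23, 95% confidence interval -0.32 to 0.78, edgeR adjusted p = 0.506). Of 20 interferon response genes 1 was higher and 1 lower, and 1 in all was called without wild type replicate 1, 2 or 3 or CPT2H-KO replicate 2, 3 or 4, and 0 with the atrial covariate.

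Of the 5 genes described in skeletal or cardiac muscle, only Usp25 passed the test, in the lower direction. Usp25, which has a muscle isoform, went from 48.2 ± 1.00 to 41.2 ± 4.86 CPM (SD, n = 5 each; log2 fold change -0.23, edgeR adjusted p = 0.0481), and CPT2H-KO replicate 5 lay within the wild type range. With the atrial covariate the log2 fold change of Usp25 was -0.077 (edgeR adjusted p = 0.496). Usp2, an output gene of the circadian clock, was at 38.1, 38.5, 29.9, 19.8 and 43.0 CPM across the wild type hearts and at 41.0, 33.4, 26.6, 22.1 and 29.8 CPM across the CPT2H-KO hearts. Hearts differed more within each group than the group means did (log2 fold change -0.15, 95% confidence interval -0.61 to 0.31, edgeR adjusted p = 0.624). Of 16 clock genes none was higher and 1 was lower. The number of clock genes called was 6 with the replicate block, 3 without wild type replicate 4 or with library totals, 2 without wild type replicate 2 or CPT2H-KO replicate 5 or with DESeq2, and 0 with the atrial covariate. 

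The 20 USP genes not yet described did not pass the test. Usp9x averaged 166 CPM in wild type hearts and 154 CPM in CPT2H-KO hearts, and Usp28 averaged 67.5 and 74.2 CPM. Usp7, which stabilises a ligase of the tumour suppressor pathway, averaged 41.6 and 45.1 CPM (log2 fold change 0.11), and Usp1, a DNA repair protease, 6.28 and 5.81 CPM (-0.11). Usp39, the splicing protein without the active cysteine, averaged 8.12 and 9.04 CPM (0.16, edgeR adjusted p = 0.136). Usp6nl, which is no protease, averaged 5.47 and 7.30 CPM (0.41, edgeR adjusted p = 0.138), with CPT2H-KO replicate 1 alone at 12.5 CPM. The others were Usp3, Usp12, Usp20, Usp31, Usp37, Usp38, Usp43, Usp45, Usp46, Usp47, Usp48, Usp49, Usp53 and Usp54, and their log2 fold changes ran from -0.19 (Usp53) to 0.18 (Usp49). All 20 had overlapping groups.

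Several calls lay close to the threshold. Usp22 lost its call without any 1 of the 10 hearts (edgeR adjusted p from 0.0501 to 0.114). Usp25 lost it without any wild type heart or CPT2H-KO replicate 2, 3 or 4 (0.0722 to 0.107), and Usp34 without wild type replicate 1, 2, 3 or 4 or CPT2H-KO replicate 1, 2 or 5 (0.0565 to 0.111). Usp11 lost it without wild type replicate 1, 2, 3 or 4 or CPT2H-KO replicate 4 or 5 (0.0587 to 0.0943). For Usp21 the hearts were wild type replicates 2, 3 and 4 and CPT2H-KO replicate 5 (0.0514 to 0.0576), and for Usp42 wild type replicates 1 and 3 and CPT2H-KO replicates 3 and 4 (0.0551 to 0.0667). Usp4, Usp8, Usp10, Usp14, Usp16, Usp24, Usp32 and Usp40 kept their calls in 18 of 19 other settings and lost them only with library totals. Usp5 kept its call without any 1 heart but lost it with library totals, with the replicate block (edgeR adjusted p = 0.0567) and with the atrial covariate (0.0768). With the atrial covariate Usp11 (0.055), Usp22 (0.0613) and Usp34 (0.104) also lost theirs. Leaving out 1 heart gave 10 called USP genes at the fewest, without wild type replicate 3, and the replicate block and the atrial covariate each gave 10 as well.

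Other gene lists of the ubiquitin system were read from the same fit. Of 35 genes of the other deubiquitinase families 13 were higher and 1 lower, at a median log2 fold change of 0.154, and 8 in all were called with the atrial covariate. Among them Uchl3, a ubiquitin hydrolase, went from 6.45 to 10.6 CPM (0.72) and Otulin, which trims linear chains, from 8.10 to 13.9 CPM (0.78). Of 15 partner genes of USP complexes 4 were higher and 1 lower, and none of the 6 ubiquitin precursor and activating enzyme genes passed. The number of partner genes called was 0 without wild type replicate 2, 1 without wild type replicate 3, 2 without wild type replicate 1 and 3 without CPT2H-KO replicate 2, 3 or 4, and it was 1 with the replicate block or the atrial covariate. Of 32 proteasome genes 4 were higher and 8 lower. In all, 22 were called under library totals and 5 with the atrial covariate. Without wild type replicate 2 or 3 the number was 6, and without CPT2H-KO replicate 3 or 4 it was 7.

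Cell type markers moved in the same comparison. Of 10 cardiomyocyte markers 6 were lower and none higher, and their summed level was 58885 to 66368 CPM per wild type heart and 52659 to 61118 CPM per CPT2H-KO heart. Of 8 fibroblast markers 4 were higher, at a sum of 726 to 1145 CPM per wild type heart and 1092 to 2071 CPM per CPT2H-KO heart, and of 7 smooth muscle and pericyte markers 4 were lower. No marker was at 0 throughout. Among 6 atrial markers 1 was higher and 0 lower, and 5 had a log2 fold change below 0. Their sum was 244 to 1233 CPM per wild type heart (median 336) and 372 to 2697 CPM per CPT2H-KO heart (median 1154). The sum thus followed the 1 higher marker and not the 5 below 0, and it is no measure of atrial RNA. The atrial light chain Myl7 ran from 25.4 to 194 CPM in wild type and from 0.285 to 144 CPM in CPT2H-KO hearts. This marker thus differed widely between hearts of the same group. It also differed with the group. CPT2H-KO replicates 1, 2, 3 and 4, at 14.1, 0.496, 0.285 and 0.610 CPM, lay below every wild type heart, and replicate 5 was at 144 CPM. Group and atrial level are therefore partly tied in this comparison, which limits what the atrial covariate can separate. The part of the cell type markers in the USP changes was not tested beyond the atrial covariate.

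**Figure D4:**
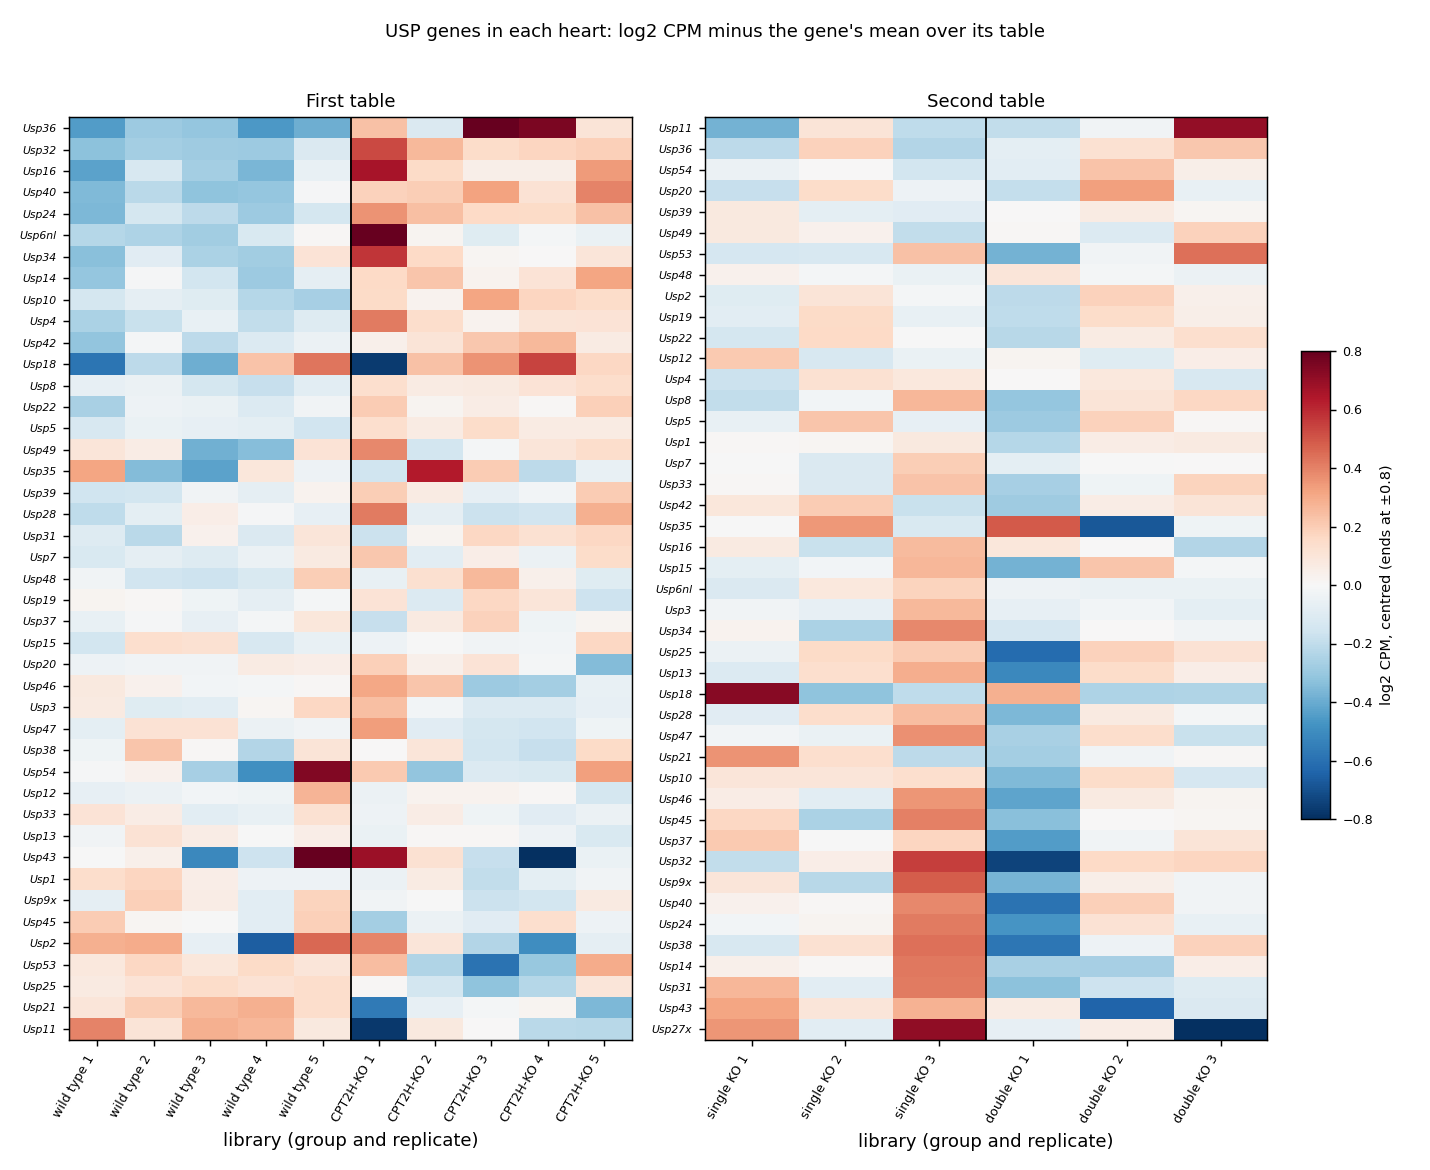
Each USP gene in each heart as log2 CPM minus the gene's mean over its table (colour, ending at 0.8 to either side), genes ordered by log2 fold change. CPT2H-KO replicate 1 is the highest heart for 14 genes in the first table; in the second, single KO replicate 3 is the highest for 23 and double KO replicate 1 the lowest for 26.

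In double KO against single KO hearts no USP gene passed the test among the 44 that were tested. The edgeR test called 0 of 12997 genes (0% as background), DESeq2 called 115 genes and limma-voom 0, and no USP gene was among the 115. At an unadjusted p under 0.05, 1 USP gene (Usp31) stood beside 942 genes in all, or 7.25%. The groups did not overlap for 2 USP genes, Usp31 and Usp43, both lower in double KO hearts, which is 4.55% of the family beside 11.8% of all genes. The log2 fold changes ran from -0.61 (Usp27x) to 0.36 (Usp11). The 95% confidence intervals reached a median of 0.389 to either side, so a change of the size seen in most called USP genes of the first comparison was not detectable here.

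Without a test on the family, 35 of 44 USP genes (79.5%) had a log2 fold change below 0, beside 49.6% of all genes, and the median was -0.10 against 0.003 for all genes. Double KO replicate 1 had the lowest level of 26 of the 44 genes and single KO replicate 3 the highest of 23. Without double KO replicate 1 the family's median was -0.04, without single KO replicate 3 it was -0.06, and without single KO replicate 2 it was -0.15. Summed USP levels were 2629 to 3094 CPM per single KO heart and 2238 to 2914 CPM per double KO heart. Other properties also differed between these groups. Myl7 was at 0.46 CPM or less in single KO hearts and at 1.49, 102 and 425 CPM in double KO hearts, and the 10 proliferation markers had a median log2 fold change of -1.61. Y-linked transcripts summed to 124, 117 and 0.732 CPM in single KO hearts and to 0.580 to 0.910 CPM in double KO hearts, so the group with USP30 loss held no heart with Y-linked expression at the level of single KO replicates 1 and 2. With sex in the fit the family's median was -0.25, but single KO replicate 3 was then the only single KO heart left in the contrast. With the atrial level in the fit the median was -0.33. Myl7 was higher in every double KO heart than in any single KO heart, so group and atrial level cannot be told apart well.

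Usp31 (GRCm38 chr7:121642021-121707253, minus strand) was at 19.6, 15.3 and 21.7 CPM across the single KO hearts and at 12.9, 14.5 and 15.1 CPM across the double KO hearts. The groups were apart by less than 1 CPM (means 18.9 ± 3.24 and 14.2 ± 1.13 CPM, SD, n = 3 each; log2 fold change -0.41, SE 0.17, 95% confidence interval -0.80 to -0.02, edgeR adjusted p = 0.656). Usp43 was at 6.09, 5.24 and 5.95 CPM across the single KO hearts and at 5.14, 3.14 and 4.53 CPM across the double KO hearts, again just without overlap (-0.43, edgeR adjusted p = 0.797). Usp27x, an X-linked relative of Usp22, was at 1.22, 0.898 and 1.56 CPM across the single KO hearts and at 0.912, 0.993 and 0.485 CPM across the double KO hearts (-0.61, -1.59 to 0.38, edgeR adjusted p = 0.845). It was near the limit of counting, and its groups overlapped.

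Usp24 was at 144, 148 and 195 CPM across the single KO hearts and at 105, 158 and 141 CPM across the double KO hearts (log2 fold change -0.27, edgeR adjusted p = 0.842). Usp10 was at 76.1, 76.1 and 78.2 CPM across the single KO hearts and at 55.7, 78.8 and 64.9 CPM across the double KO hearts (-0.21, edgeR adjusted p = 0.849). In both genes 2 of the 3 double KO hearts lay below the single KO range, and replicate 1 was the lowest. Usp14 was at 59.4, 58.0 and 77.2 CPM across the single KO hearts and at 48.2, 48.1 and 59.9 CPM across the double KO hearts, overlapping in 1 heart (-0.32, edgeR adjusted p = 0.761).

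**Figure D5:**
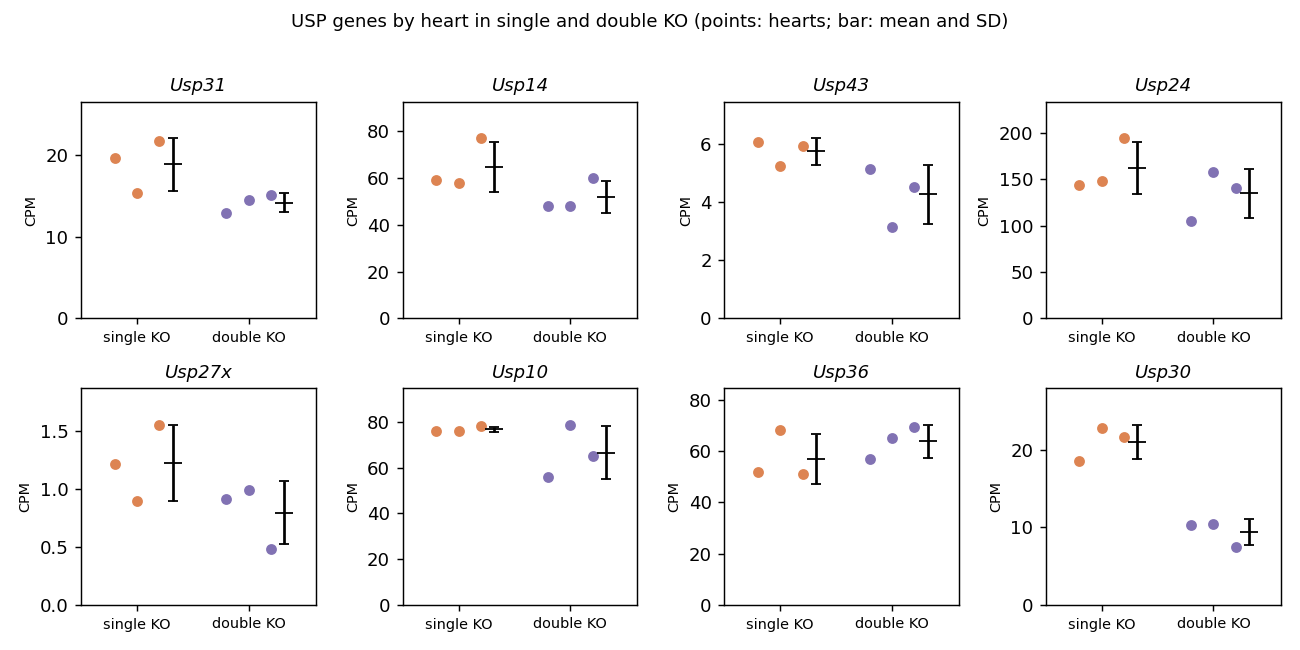
CPM of the 6 USP genes with the lowest p in the second table, of Usp36 and, for reference, of Usp30, in each single KO and double KO heart, with group means and SD (n = 3 each). Usp31, Usp43 and Usp30 do not overlap between the groups, and no gene passes the test after adjustment.

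The other genes tied to mitophagy stayed within overlapping ranges in the second table. Usp8 was at 55.7, 62.8 and 76.8 CPM across the single KO hearts and at 51.4, 68.4 and 71.4 CPM across the double KO hearts (log2 fold change -0.03, 95% confidence interval -0.43 to 0.37). Usp13 was at 274, 325 and 361 CPM across the single KO hearts and at 207, 327 and 307 CPM across the double KO hearts (-0.19, -0.64 to 0.25). Usp15 was at 81.8, 85.0 and 104 CPM across the single KO hearts and at 66.5, 101 and 85.5 CPM across the double KO hearts (-0.10, -0.50 to 0.31). For these 3 genes double KO replicate 1 was the lowest heart and the other double KO hearts fell inside the single KO range.

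Usp19 was at 163, 191 and 165 CPM across the single KO hearts and at 150, 191 and 177 CPM across the double KO hearts (log2 fold change -0.00, 95% confidence interval -0.34 to 0.34). Usp33 was at 31.2, 28.6 and 36.2 CPM across the single KO hearts and at 25.7, 30.2 and 34.9 CPM across the double KO hearts (-0.08, -0.44 to 0.28). Usp35 was at 4.88, 6.21 and 4.48 CPM across the single KO hearts and at 6.88, 3.06 and 4.77 CPM across the double KO hearts (-0.08, -0.79 to 0.62). Each of these 3 genes had overlapping groups. Usp36, the gene with the largest rise in the first table, was at 51.7, 68.1 and 50.9 CPM across the single KO hearts and at 56.7, 65.1 and 69.5 CPM across the double KO hearts (0.16, -0.20 to 0.52). The double KO hearts had no consistent place relative to the single KO hearts in these 4 genes.

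The remaining genes followed for their known roles gave the same picture. Usp2 was at 152, 175 and 161 CPM across the single KO hearts and at 141, 185 and 168 CPM across the double KO hearts (log2 fold change 0.01, 95% confidence interval -0.33 to 0.35). Usp18 was at 6.99, 3.37 and 3.66 CPM across the single KO hearts and at 5.14, 3.56 and 3.56 CPM across the double KO hearts (-0.19, -0.95 to 0.56). Usp22 was at 41.9, 51.5 and 46.1 CPM across the single KO hearts and at 39.6, 48.4 and 50.6 CPM across the double KO hearts (-0.01, -0.34 to 0.33). In all 3 the groups overlapped. Usp11, lower in the first comparison, was at 7.92 ± 1.37 and 10.2 ± 3.57 CPM (SD, n = 3 each; 0.36, edgeR adjusted p = 0.85). The 27 remaining tested genes ran from -0.28 (Usp38) to 0.13 (Usp54) in log2 fold change, and each had overlapping groups. None of the lists of other deubiquitinases (35 genes, median -0.03), USP partners (15 genes, median -0.13) or proteasome genes (32 genes, median 0.03) had a gene that passed the edgeR test, and 2 other deubiquitinases passed it with the atrial covariate. Of 16 clock genes 0 passed, 5 had an unadjusted edgeR p under 0.05 and 4 lay below 0. Clock genes summed to 1032 to 1138 CPM per single KO heart and 1235 to 1402 CPM per double KO heart. DESeq2 called 2 clock genes and the atrial covariate 1.

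The 2 comparisons share no library. Of the 13 USP genes that rose in CPT2H-KO hearts, 12 had a log2 fold change below 0 in double KO hearts, at a median of -0.10, beside 1283 of the 2159 genes that rose in all (59.4%, median -0.050). Of the 27 genes not called in CPT2H-KO hearts 20 were below 0 in double KO hearts, also at a median of -0.10. Across the 43 genes of both tables Pearson's r between the log2 fold changes was -0.10, and across all 12035 shared genes it was -0.17; genes of 1 library share its depth and scaling and are not independent. Among the USP genes the log2 fold change of the first comparison had r = 0.21 with log2 exon length and 0.02 with the log2 level in wild type hearts (43 genes), which is given as a description only.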

How the data were processed

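RNA of whole hearts was purified by column with DNase digestion and made into stranded total RNA libraries after ribosomal RNA removal, per the labels' protocols. bcl2fastq, HISAT2, the build mm10 and DESeq2 1.42.0 are named in the submitters' processing notes; which program and annotation counted the reads, and whether by strand, is not stated there. The authors deposited whole-number read counts per gene in 2 tables, and 1 unnamed entry of the second was left out. Each table was fitted on its own in R 4.3.3 with edgeR 4.0.16 (filterByExpr, TMM, quasi-likelihood F test, Benjamini-Hochberg adjustment over all genes tested, threshold 0.05); standard errors and 95% intervals come from that fit. The code was tested on simulated counts. Alternatives were RLE size factors, library totals, TMM without mitochondrially encoded genes, no filter, DESeq2 1.42.0, limma-voom (limma 3.58.1), a replicate block, a sex term (from Y-linked counts), an atrial covariate and leaving out each heart.

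The members and gene lists were chosen with earlier results of these data known. Genes given in every heart were, by rule, those past the threshold with an absolute log2 fold change of at least 0.5, the 6 lowest p-values of the second comparison, and 11 genes tied to mitophagy, the clock, interferon or SAGA; Usp24, Usp21 and Usp11 were added after their values were seen. Exon lengths (the union of a gene's annotated exons) and overlaps come from GENCODE M21 and promoter windows from RefSeq. No 2 libraries of a group agreed within counting noise: the lowest chi-square per degree of freedom was 10.7 over 20 pairs and 14.6 over 6. A search for the active-site motif in USP proteins was not run because no protein sequences were used here.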

Additional observations from a re-analysis of the deposited data

Results flagged for a closer look

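In groups of 5 hearts, 1 heart stood far from the other 4 for 10 of the 86 combinations of a USP gene and a group. All 10 were on the high side. Chance alone gives about 1 in 20 for a single combination. The genes of 1 heart are not independent, so the count cannot be tested against that share. CPT2H-KO replicate 1 was the heart that stood apart in 6 of the 10. It stood at 11.8 CPM for Usp3 (next heart 9.83), 34.7 CPM for Usp32 (28.9), 112 CPM for Usp34 (84.3), 57.7 CPM for Usp4 (47.8), 100.2 CPM for Usp47 (77.8) and 12.5 CPM for Usp6nl (6.26). Wild type replicate 5 stood apart for Usp12 at 11.7 CPM (next 9.57), for Usp32 at 22.2 CPM (19.9) and for Usp43 at 1.88 CPM (1.05). CPT2H-KO replicate 5 stood apart for Usp15 at 48.1 CPM (42.9). Usp3, Usp6nl, Usp12, Usp15, Usp43 and Usp47 did not pass the test in the first comparison; Usp4 and Usp32 kept their calls without CPT2H-KO replicate 1, and Usp34 did not.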

How the results depend on the processing

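In the first comparison library totals gave 1 USP gene higher and 10 lower at a median of -0.157, and turned the log2 fold changes of Usp8 (-0.053), Usp5 (-0.072), Usp22 (-0.071), Usp15 (-0.23), Usp19 (-0.22), Usp35 (-0.070), Usp18 (-0.026) and Usp30 (-0.085); all genes tested moved down by a similar amount. TMM without mitochondrially encoded genes left 1 USP gene lower and put Usp3 at 0.00169 and Usp47 at 0.00127. The sex term called 12 USP genes, 1 of them lower. Usp11, Usp22, Usp25 and Usp34 lost their calls with it (edgeR adjusted p from 0.0566 to 0.0843). Y-linked transcripts summed to 0.308 CPM in wild type replicate 1 and to 0.119 and 0.203 CPM in CPT2H-KO replicates 1 and 3. The other hearts of that table had 82.1 CPM or more. The atrial covariate called 10 USP genes, 1 of them lower, and 3118 genes in all, and put Usp19 at -0.029, Usp18 at -0.066, Usp3 at 0.026 and Usp47 at 0.080. Leaving out a heart gave 10 to 14 USP genes called, 0 to 3 of them lower, with ranges of -0.013 to 0.068 for Usp15, -0.092 to 0.015 for Usp3, -0.070 to 0.019 for Usp12, -0.30 to 0.17 for Usp43 and -0.12 to 0.011 for Usp47. The cause of these shifts was not tested. Over 19 alternatives the named USP genes kept their direction and side of the threshold in 435 results, lost a call in 68, gained 1 in 3 and turned in 26.

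In the second comparison DESeq2 called 115 genes and the atrial covariate 329, none a USP gene. The family's median was -0.246 with the sex term and -0.331 with the atrial covariate. No double KO heart had Y-linked expression at the level of single KO replicates 1 and 2. The sex term thus set the double KO hearts against single KO replicate 3 alone. It turned Usp19 (0.064), Usp35 (0.13), Usp18 (0.16) and Usp22 (0.00307). The atrial covariate turned Usp35 (0.51), Usp36 (-0.023), Usp2 (-0.23) and Usp18 (0.32). Without a heart, 0 to 114 genes were called (114 without double KO replicate 1, 4 without single KO replicate 3), and the ranges were -0.15 to 0.10 for Usp8, -0.25 to 0.044 for Usp15, -0.082 to 0.088 for Usp19, -0.21 to 0.026 for Usp33, -0.41 to 0.16 for Usp35, -0.080 to 0.11 for Usp2, -0.39 to 0.20 for Usp18, -0.096 to 0.089 for Usp22 and -0.018 to 0.066 for Cpt2. That table holds no mitochondrially encoded genes, so TMM without them gave no value.

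With the replicate number as a block, 10 USP genes (1 lower) and 4179 genes were called in the first comparison, and 0 USP genes and 1 gene in the second. Correlations of same-numbered hearts ran from -0.05 to 0.26 and from -0.20 to 0.18, and 2 of 5 and 1 of 3 pairs matched best with their own number. With so few hearts these values cannot settle whether the numbers mark a shared litter or day, which the labels do not state. The second comparison had fewer hearts and lower library totals; their part in its lack of calls was not tested.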
